A study of Mus musculus with 4 samples.

Results

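The genes described here are the 3 members of the RUNX transcription factor family, Runx1, Runx2 and Runx3, and Cbfb, which encodes their common partner CBF-beta. They were taken by gene symbol, with earlier results of these data known, and make up 4 of the 50600 genes in each table. RNA was sequenced from regulatory T cells of the mouse strain C57BL/6NJ in 4 libraries that the labels number as biological replicates 1 to 4, in 1 group with no treatment or altered gene named. Regulatory T cells are the CD4+ T cells that hold immune responses in check under the transcription factor Foxp3. All 4 libraries carry the same donor record, with age unknown and sex not collected, and the labels do not say whether they came from separate animals or cultures. Xist was high in replicates 1 and 2 and Y-linked genes were in replicates 3 and 4, with values below, so the 4 libraries did not all come from the same animal. The p-values below measure the spread between these libraries, part of which may be technical. The labels call the assay total RNA-seq but link a protocol whose name says PolyA+, which bears on the counts of transcripts without a poly(A) tail. A protocol for differentiating CD4+ T cells is linked to every library, and the sample names in the file headers add that the cells were activated and sorted, with a time of 72 h.

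RUNX proteins bind DNA through the Runt domain, which each of the 3 paralogs carries. CBF-beta does not bind DNA itself; it pairs with the Runt domain, strengthens its hold on DNA and protects the RUNX protein from degradation, so that the working unit is a dimer. Runx1 is required for the first blood stem cells and for T cell development, Runx3 for cytotoxic T cells, in which it silences Cd4, and Runx2 for bone. In regulatory T cells the dimer is known to bind the Foxp3 gene and to help keep it expressed, and Runx1 protein also binds Foxp3 protein. Each RUNX gene is transcribed from a distal and a proximal promoter, whose products differ at the amino end of the protein; gene-level counts do not separate them.

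One feature of sequence is shared by the 3 RUNX genes and absent from the window of Cbfb. The windows run from 250 bases before to 50 bases after each transcription start in RefSeq (GRCm38.p6). The distal windows of Runx1, Runx2 and Runx3 have in common a run of 18 bases that holds the RUNX recognition core ACCACA in tandem. It is shown in capitals, 5′ to 3′ on each gene's own strand, because it carries the family's own binding motif at the family's own starts.
Runx1, chr16:92826026-92826055, minus strand: tcataaaCAACCACAGAACCACAAGttggg
Runx2, chr17:44814584-44814613, minus strand: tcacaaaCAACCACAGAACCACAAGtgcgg
Runx3, chr4:135120502-135120531, plus strand: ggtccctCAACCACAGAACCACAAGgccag
In Runx1 and Runx2 the run starts at base 27 and base 22 of the RefSeq transcript and lies in an exon of the deposited annotation. In Runx3 it starts at position -136 from the RefSeq start, outside the deposited exons. The tandem ACCACAGAACCACA (TGTGGTTCTGTGGT on the other strand) was found in 4 of 32851 windows, or 0.0122%. The fourth window belongs to Gm16225, a long non-coding RNA gene on the opposite strand beside Runx3, and shares 232 bases with the distal Runx3 window. The tandem was thus found in no window outside the RUNX loci. The run was picked as the longest stretch common to the 3 distal windows, and the tandem was cut from it. Its presence in those windows is therefore by construction. How often other stretches of this length occur was not counted, so its absence elsewhere does not measure how particular it is to the family. The core alone, ACCACA or TGTGGT, was in 16.8% of all windows, with 2 matches in the distal windows of Runx1 and Runx3, 3 in that of Runx2, and 0 in the downstream windows of Runx1 and Runx3 and in the window of Cbfb. A match in letters is a description of the sequence and does not show that a RUNX protein was bound there in these cells.

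Library totals ran from 32648138 to 94983494 counts, and 12114 genes, or 23.9%, reached 1 TPM in every library. TPM, a count per exon length scaled to the same total in each library, was computed from the deposited values and allows levels of different genes to be compared per length. The label was set beside 8 fixed markers of regulatory T cells, all of which reached 1 TPM in every library, with Foxp3 at 463 ± 25.4 TPM and Il2ra at 1769 ± 120 TPM (SD, n = 4). Of all protein-coding genes 49.1% reached that level, and the marker lists were chosen with earlier results of these data known. None of the marker lists was of other CD4+ T cells, so the part of such cells in these libraries was not measured. Genes of other helper lineages stood in the partner and target lists below. Gata3 was at 40.3 ± 4.50 TPM, Tbx21 at 7.91 ± 2.39 TPM and Il17a at 6.83 ± 1.98 TPM, Ifng at 0.223 ± 0.154 TPM and Il4 at 0 (SD, n = 4). Of 8 fixed lists of markers of other cell types, summed levels ran from 12.8 to 17.3 TPM over the libraries for CD8 T and NK cells (1 of 7 genes at 1 TPM in every library, Cd8b1 at 14.4 ± 2.09 TPM beside Cd8a at 0.332 ± 0.274 TPM; Ncr1 at 0) and from 5.32 to 7.34 TPM for B cells (1 of 5, Cd79b at 5.37 ± 1.02 TPM; Ms4a1 at 0.00813 TPM). The sums were at most 3.41 TPM for monocytes, macrophages and dendritic cells (1 of 7, Adgre1; Lyz2 and Csf1r at 0.00644 and 0.0111 TPM), 213.7 to 256.9 TPM for plasmacytoid dendritic cells (1 of 4, Bst2 at 240.1 ± 19.0 TPM; Siglech and Ccr9 at 0) and 0 for all 6 genes of neutrophils and mast cells. They were 1.12 to 1.67 TPM for the erythroid and platelet lineages (0 of 6; Hbb-bs and Pf4 at 0), 2.34 to 5.50 TPM for stroma and endothelium (1 of 6, Epcam at 2.85 ± 1.404 TPM; Cdh5 at 0) and 6.46 to 10.5 TPM for progenitors and thymocytes (1 of 6, Kit at 7.27 ± 1.08 TPM; Cd34, Rag2 and Ptcra at 0). RUNX genes are also expressed in several of these lineages, and the part such cells may have in the values below was not tested. In bulk RNA, fewer cells expressing a gene and less of its RNA per cell cannot be told apart.

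In TPM, Cbfb had the highest level of the 4 genes, followed by Runx3, Runx1 and Runx2, in every library. Runx3 made up about 80% of the summed RUNX TPM, Runx1 nearly all of the rest, and Runx2 about 1%. The order of Cbfb and Runx3 and the sizes of these shares depended on the correction for length. In counts without length the share of Runx3 was 63.6%.

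Cbfb (ENSMUSG00000031885.14), on chromosome 8 at 105170674 to 105217989, plus strand, in mm10, held 5803, 10222, 10626 and 3762 counts in replicates 1 to 4. These correspond to 115.2, 134.3, 103.5 and 107.6 TPM, with a mean of 115.1 ± 13.7 TPM (SD, n = 4). Replicate 2 was the highest and replicate 3 the lowest, 1.30-fold apart. By mean level Cbfb ranked 1637 among 21764 protein-coding genes, above 84.7% of those that reached 1 TPM in every library.

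Runx3 (ENSMUSG00000070691.10) lies on chromosome 4 at 135120652 to 135177990, plus strand. Its 5795, 9263, 13170 and 4491 counts gave 80.0, 84.7, 89.2 and 89.3 TPM in replicates 1 to 4, with a mean of 85.8 ± 4.43 TPM (SD, n = 4). It was the steadiest of the 4 genes, with a coefficient of variation of 5.16%, and replicate 1 was the lowest. Its rank was 2286 among the protein-coding genes, above 78.6% of those expressed.

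Runx1 (ENSMUSG00000022952.16), on the minus strand of chromosome 16 at 92601466 to 92826149, held 3224, 5828, 6995 and 2179 counts. Its levels were 18.8, 22.5, 20.04 and 18.3 TPM in replicates 1 to 4, and the mean was 19.9 ± 1.87 TPM (SD, n = 4). Replicate 2 was again the highest, and the other 3 lay between 18.3 and 20.04 TPM. Runx1 stood above 37.3% of the expressed protein-coding genes, whose median was 30.9 TPM.

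Runx2 (ENSMUSG00000039153.16), on the minus strand of chromosome 17 at 44495987 to 44814797, was present at a low level. It held 122, 280, 322 and 72 counts, or 0.954, 1.45, 1.23 and 0.811 TPM in replicates 1 to 4, with a mean of 1.11 ± 0.285 TPM (SD, n = 4). Replicates 1 and 4 fell below 1 TPM and replicates 2 and 3 above it. The exact 95% Poisson interval for counting error, which covers that error only, was 0.6345 to 1.021 TPM in replicate 4 and 1.28 to 1.63 TPM in replicate 2. These are the lowest and highest libraries, picked with the values known, and their intervals did not overlap. The same held for the lowest and highest libraries of Runx1, Runx3 and Cbfb, and the share of all genes for which it holds was not computed. All counts were far above a floor of 3 counts.

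**Figure D1:**
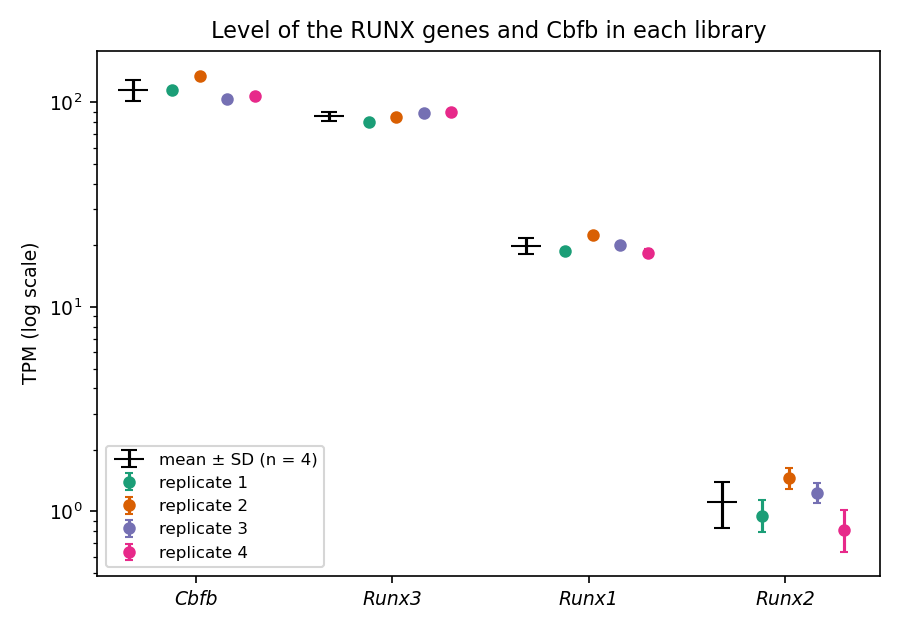
Level of Cbfb, Runx3, Runx1 and Runx2 in TPM on a log axis; coloured points are the 4 libraries with exact 95% Poisson intervals for counting error, and the black bar is the mean ± SD. The genes keep the order Cbfb, Runx3, Runx1, Runx2 in every library, from 134.3 TPM for Cbfb in replicate 2 down to 0.811 TPM for Runx2 in replicate 4.

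Within each library the members were compared as differences of log2(TPM + 1), in 7 contrasts, each tested over the 4 libraries by exact permutation of signs (two-sided). A difference with the same sign in 4 of 4 libraries always reaches the smallest p this test can give, 2 of 16 sign assignments, so no contrast could pass 0.05. Runx3 exceeded Runx1 by 2.03, 1.86, 2.10 and 2.22 in replicates 1 to 4, with a mean of 2.05 ± 0.15 (SD, n = 4; smallest possible exact p, adjusted p = 0.146). In TPM, Runx3 was 4.25, 3.76, 4.45 and 4.87 times Runx1. The ratio was lowest in replicate 2, where Runx1 was highest, and Runx3 was the higher gene in every library.

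Runx1 exceeded Runx2 by 3.31 ± 0.08 and Runx3 exceeded Runx2 by 5.37 ± 0.21 on the same scale (SD, n = 4; smallest possible exact p, adjusted p = 0.146 for both). Because Runx2 is near 1 TPM, the 1 added to TPM shrinks these differences and their spread. With 0.1 added in its place they were 4.07 ± 0.22 and 6.18 ± 0.35. In TPM, Runx1 was 15.5 to 22.6 times Runx2, and Runx3 was 58.4 to 110.2 times Runx2. Both ratios were largest in replicate 4, in which Runx2 rested on 72 counts. Both differences held in 4 of 4 libraries.

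Cbfb exceeded Runx3 by 0.52, 0.66, 0.21 and 0.27 in replicates 1 to 4, with a mean of 0.41 ± 0.21 (SD, n = 4; smallest possible exact p, adjusted p = 0.146). It exceeded Runx1 by 2.47 ± 0.11 and Runx2 by 5.78 ± 0.17, also in 4 of 4 libraries (smallest possible exact p, adjusted p = 0.146 for both). With 0.1 in place of 1 added to TPM, Cbfb exceeded Runx2 by 6.59 ± 0.28. The order of Cbfb and Runx3 rests on the correction for length: in CPM, counts scaled by the library total alone, the difference was -0.10 ± 0.21 and above 0 in 2 of 4 libraries (exact permutation p = 0.5). The other 5 pairwise differences kept their sign in CPM. Different transcripts may also be recovered with unequal efficiency, which was not tested.

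The choice of length bears on Runx1 most. The deposited length joins all annotated exons of a gene, 11827 bases for Runx1, which is 2.02 times its longest annotated coding transcript of 5861 bases. The same ratio was 1.37 for Runx2, 1.29 for Runx3 and 1.20 for Cbfb. With the longest coding transcript as the length, an alternative for the levels that was added with the values known, Runx1 stood at 40.2 ± 3.78 TPM, Runx3 at 110.5 ± 5.71 TPM, Cbfb at 138.6 ± 16.5 TPM and Runx2 at 1.52 ± 0.39 TPM (SD, n = 4). Only the lengths of the 4 members were replaced and the scaling total was kept, so all 4 values rose by construction. They allow the members to be compared with each other, not with the TPM of other genes. The order of the 4 genes was the same under both lengths.

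The make-up of the RUNX pool, the share of each paralog in their summed TPM, was similar across libraries. Runx3 took 80.2%, 77.9%, 80.7% and 82.3% in replicates 1 to 4, with a mean of 80.3 ± 1.83% (SD, n = 4). Runx1 took 18.9%, 20.7%, 18.1% and 16.9%, with a mean of 18.7 ± 1.61%. Runx2, the bone factor, took 1.04 ± 0.248%. Replicate 2 had the smallest share of Runx3 and the largest of Runx1 and Runx2, and replicate 4 the reverse. With transcript lengths the shares were 72.6 ± 2.25% for Runx3 and 26.4 ± 2.05% for Runx1, and in counts without length 63.6 ± 2.63% and 34.9 ± 2.34%, so Runx3 took the largest share in every library under all 3 measures.

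**Figure D2:**
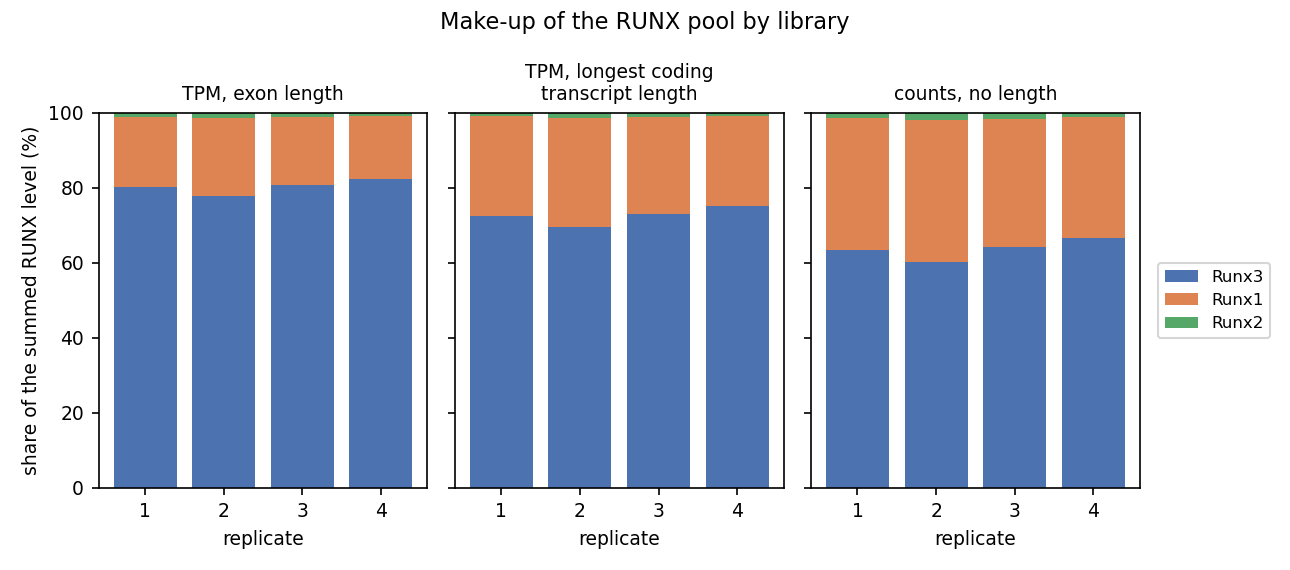
Share of Runx3, Runx1 and Runx2 in their summed level, in percent, for replicates 1 to 4, with levels taken as TPM on exon length, as TPM on the longest coding transcript and as counts without length. Runx3 fills 77.9% to 82.3% of the bar in the first panel and 60.3% to 66.6% in the last, and the Runx2 part is barely visible in each.

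Because every RUNX protein pairs with CBF-beta, the summed RUNX level was set beside that of Cbfb. The sum was 99.8, 108.6, 110.5 and 108.5 TPM in replicates 1 to 4, against 115.2, 134.3, 103.5 and 107.6 TPM of Cbfb. It was thus 0.866, 0.809, 1.07 and 1.01 times Cbfb, below it in replicates 1 and 2 and above it in replicates 3 and 4. The mean difference of -0.10 ± 0.18 (log2, SD, n = 4) was smaller than the spread between libraries (exact permutation p = 0.5, adjusted p = 0.5). Its sign depended on the length used: it was 0.14 ± 0.18 with transcript lengths, above 0 in 3 of 4 libraries (exact permutation p = 0.375), and 0.75 ± 0.16 in CPM, above 0 in 4 of 4 (smallest possible exact p). RNA levels of the pair do not give the amounts of the proteins.

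The libraries that fell on each side in TPM on exon length, a split that changed with the length used, also differed in sex-linked genes. The levels of Xist, transcribed from the inactive X chromosome, were 312, 331, 0.539 and 2.38 TPM in replicates 1 to 4, while Y-linked Eif2s3y stood at 0.0830, 0.132, 49.3 and 67.7 TPM. The ratio of summed RUNX to Cbfb was lower in both libraries with high Xist than in both with Y-linked counts. Any part of this in the ratio was not tested, since the labels give no sex.

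**Figure D3:**
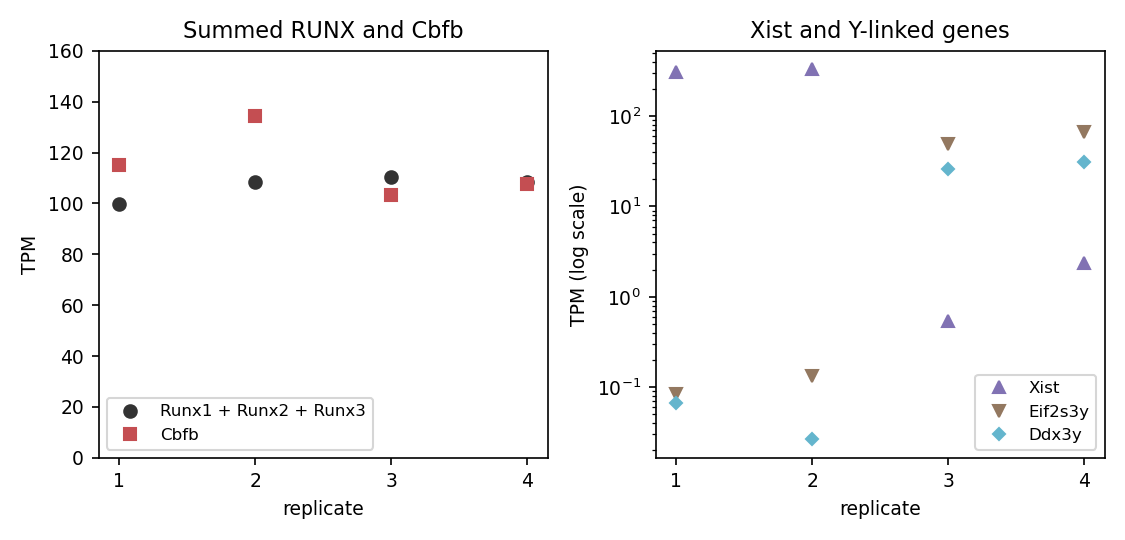
Left, summed TPM of Runx1, Runx2 and Runx3 (circles) and TPM of Cbfb (squares) in replicates 1 to 4; right, TPM of Xist, Eif2s3y and Ddx3y in the same libraries on a log axis. Cbfb lies above the RUNX sum in replicates 1 and 2, by most in replicate 2 (134.3 against 108.6 TPM), and slightly below it in replicates 3 and 4.

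Whether a member varied between libraries more than genes of its abundance was tested with edgeR's goodness-of-fit test about the trended dispersion. It called 51 of 13494 genes, or 0.378%, at an adjusted p under 0.05, and 0 of the 4 members. The number called was 17 without replicate 1, 23 without replicate 3 and 937 with a common dispersion, and 0 members were called in each case. At an unadjusted p under 0.05 it picked out 5.97% of all genes tested and again 0 members. The smallest unadjusted p among the members was that of Cbfb, 0.126 (edgeR adjusted p = 0.993), and the adjusted p was 1.00 for Runx1, Runx2 and Runx3. Across the 8 alternatives of this test the edgeR adjusted p ran from 0.454 to 1.00 for Runx2 and from 0.983 to 1.00 for Cbfb. The SD of log2 CPM was 0.08 for Runx3, 0.11 for Runx1, 0.14 for Cbfb and 0.35 for Runx2, against a median of 0.138 over all genes tested. A test that makes no call does not show that the levels were equal.

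**Figure D4:**
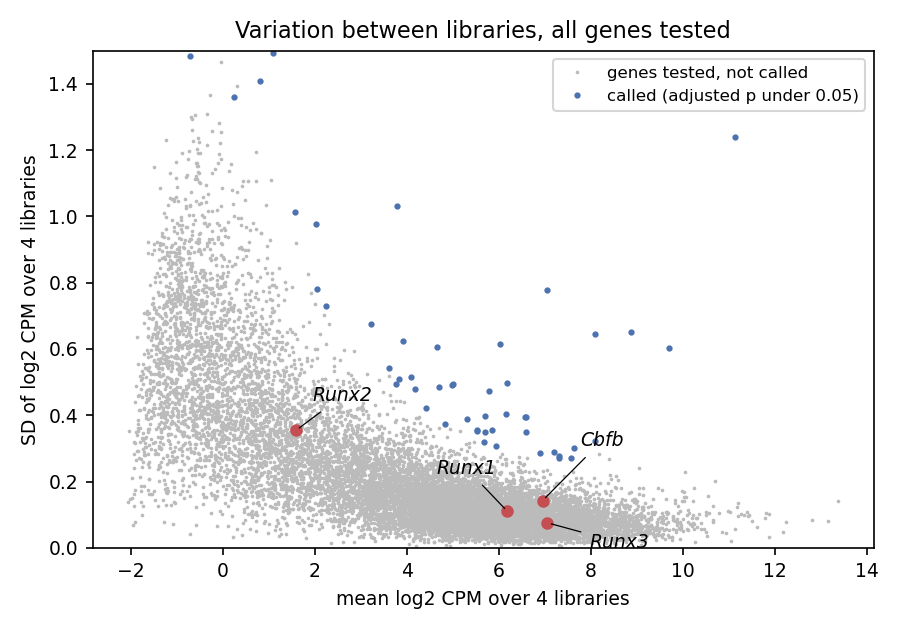
SD against mean of log2 CPM over the 4 libraries for all 13494 genes tested (grey), the 51 called by edgeR's goodness-of-fit test (blue) and the 4 members (red); 2 genes with an SD above 1.5 lie outside the plotted range. The members sit within the grey cloud, Runx2 at an SD of 0.35 and the other 3 at 0.14 or less.

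The protein-coding genes closest to each member in level, by the root mean square difference of log2(TPM + 1) over the 4 libraries, were named by rule. For Runx1 they were Cipc (0.0266), Pde4d (0.0340) and Pigk (0.0481). Those of Runx3 were Adh5 (0.0287), Lrrc41 (0.0317) and Capn2 (0.0332). Those of Cbfb were Adam10 (0.0576), Naa50 (0.0595) and Nucks1 (0.0640). Those of Runx2 were Zscan18 (0.0650), BC034090 (0.0744) and Gng7 (0.0800). With 4 libraries of a single group this measure finds genes of like level and says little about genes that move together.

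Among the genes that overlap a member, Supt3 at the Runx2 locus had the most counts, and the non-coding ones had few. Of the genes whose span overlaps Runx2, the antisense Runx2os1 held 0, 7, 7 and 8 counts, Runx2os2 held 1 count in all and Runx2os3 none. The protein-coding Supt3, whose product is a subunit of a histone acetyltransferase complex, overlaps Runx2 on the opposite strand and stood at 10.98, 8.99, 9.998 and 10.7 TPM, above Runx2 in every library. Its reads were kept apart from Runx2 by the strand setting. The antisense Gm26626 in Runx1 had no count, Gm16224 in Runx3 had 3, all in replicate 3, and Gm16225 beside Runx3 had 5, 0, 0 and 2. Within Cbfb the small nuclear RNA gene Gm22063 held 21, 0, 0 and 1 counts and Gm24629 held 1. Against 3762 or more counts of Cbfb these numbers are small. Multimapping reads were not counted, and any loss of reads between paralogs was not tested. The longest identical stretch of the longest coding transcripts was 38 bases between Runx1 and Runx3 and 26 bases for the other RUNX pairs.

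RUNX proteins repress through corepressors, among them the full-length TLE proteins, which bind a short motif at the carboxyl end of RUNX proteins. Of 14 fixed genes of corepressors and the TLE family 12 reached 1 TPM in every library, with a list median of 37.6 TPM. Of all protein-coding genes 49.1% reached that level, a share to set beside the counts of each list that follows. The 4 highest were Tle5, a short member of the TLE family (named Aes in the annotation), at 408 ± 24.3 TPM, the histone deacetylases Hdac1 and Hdac3 at 156 ± 6.74 and 92.2 ± 4.54 TPM, and the nuclear corepressor Ncor1 at 91.8 ± 3.86 TPM (SD, n = 4). Among the full-length TLE genes, Tle3 was the highest at 62.5, 64.4, 67.7 and 59.7 TPM, with Tle4 and Tle1 at 20.2 ± 1.51 and 16.0 ± 1.26 TPM. Of the ETO family, whose founder Runx1t1 is the fusion partner of RUNX1 in human leukaemia, Cbfa2t2 stood at 16.8 ± 1.17 TPM, while Runx1t1 and Cbfa2t3 had no count in any library. None of the 12 genes tested varied beyond the trend, and none had an unadjusted p under 0.05 (edgeR).

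Coactivators and enzymes that modify RUNX proteins were also broadly present: 13 of 15 reached 1 TPM in all libraries, and their median was 26.5 TPM. The kinase gene Pim1 led at 353 ± 23.6 TPM, followed by the arginine methyltransferase gene Prmt1 at 306 ± 14.8 TPM, the ubiquitin ligase gene Stub1 at 201 ± 11.8 TPM and the methyltransferase gene Carm1 at 115 ± 5.44 TPM (SD, n = 4). The acetyltransferases Ep300, Kat6a and Crebbp stood at 25.7 ± 1.48, 36.6 ± 0.880 and 18.3 ± 2.19 TPM. Crebbp had the only unadjusted p under 0.05 among the 14 tested (edgeR adjusted p = 0.766), with 21.6 TPM in replicate 1 against 17.6, 17.2 and 17.0 TPM. Yap1 and Wwtr1, the transducers of Hippo signalling, were at or under about 1 TPM, Wwtr1 with 44 of its 45 counts in replicate 3.

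Factors known to act beside RUNX proteins on DNA reached 1 TPM in every library in 11 of 12 cases, with a list median of 39.1 TPM. Foxp3 was at 460, 465, 495 and 433 TPM, several times the level of any RUNX gene in each library. Ets1, which binds DNA together with Runx1, stood at 165, 218, 196 and 205 TPM. The T cell factor Bcl11b followed at 84.0 ± 2.74 TPM and Zbtb7b, which encodes the helper lineage factor ThPOK, at 82.5 ± 3.93 TPM (SD, n = 4). Zbtb7b and Runx3, which are known to repress each other's programmes in thymocytes, were at nearly the same level here, 78.1, 82.2, 82.1 and 87.6 TPM of Zbtb7b beside 80.0, 84.7, 89.2 and 89.3 TPM of Runx3. Tbx21, the Th1 factor that acts with Runx3 on Ifng, was low at 7.91 ± 2.39 TPM, and Erg was the member under 1 TPM. None of the 12 was called or had an unadjusted p under 0.05 (edgeR).

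Genes described as activated by RUNX proteins in T cells covered a wide range of levels. Of 17 such genes 12 reached 1 TPM in every library, with a list median of 9.20 TPM. The highest were Il2ra at 1769 ± 120 TPM, Tnfrsf18 at 1141 ± 60.3 TPM, the T cell receptor constant gene Trbc2 at 666 ± 39.5 TPM and the inhibitory receptor gene Ctla4 at 649 ± 57.2 TPM (SD, n = 4). Of the genes of the cytotoxic and Th1 programmes, 5 did not reach 1 TPM in every library: Ifng stood at 0.0533, 0.424, 0.183 and 0.231 TPM, the perforin gene Prf1 at 0.301 ± 0.225 TPM, Gzmb at 0.244, 2.42, 1.39 and 1.19 TPM, Cd8a at 0.332 ± 0.274 TPM and the integrin gene Itgae at 0.921 ± 0.387 TPM. Others did reach it: Nkg7, a gene of cytotoxic cells, stood at 77.3, 111.8, 89.7 and 106.3 TPM, Cd8b1, which encodes the partner chain of Cd8a, at 14.4 ± 2.09 TPM, the cytokine gene Csf2 at 8.25 ± 1.05 TPM, the chemokine gene Ccl5 at 5.95 ± 1.72 TPM and the factor gene Eomes at 1.96 ± 0.496 TPM. The receptor gene Il7r, at 9.20 ± 0.783 TPM, held the median. None of the 13 genes tested was called (edgeR; 0 at an unadjusted p under 0.05).

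Genes described as repressed by RUNX proteins were mostly expressed, 7 of 8 reaching 1 TPM in each library, with a median of 79.9 TPM. Cd4, silenced by Runx3 in cytotoxic cells, stood at 527, 567, 556 and 577 TPM. The homing receptor gene Ccr7 was at 631 ± 78.3 TPM, the factor gene Tcf7 at 420.4 ± 12.04 TPM and Zbtb7b at the 82.5 ± 3.93 TPM given above (SD, n = 4). Il4, whose silencer RUNX proteins bind, had no count in any library. Il2, which the complex of Runx1 and Foxp3 is known to repress, was at 1.57, 1.84, 1.16 and 4.61 TPM, from 26, 46, 39 and 53 counts, with replicate 4 the highest. Il2 and Ccr7 had unadjusted p values under 0.05, but none of the 7 tested was called (edgeR adjusted p = 0.831 and 0.766).

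The bone and cartilage genes that Runx2 drives elsewhere were low, with 8 of 10 under 1 TPM in every library and 5 without a count. In this list 1 gene reached 1 TPM in every library, Spp1, which encodes the secreted phosphoprotein osteopontin, at 9.39, 8.27, 6.25 and 6.22 TPM. Ibsp, Bglap2, Mmp13, Col10a1 and Dlx5 had no count in any library, and Alpl, Col1a1, Sp7 and Bglap averaged 0.607, 0.570, 0.349 and 0.0559 TPM. The list median was 0.0279 TPM, and of the 3 genes that could be tested none was called, with Col1a1 alone at an unadjusted p under 0.05 (edgeR adjusted p = 0.664).

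Signalling by TGF-beta meets RUNX proteins at the SMAD factors. All 8 fixed genes of this group reached 1 TPM in every library, with a list median of 40.0 TPM. The receptor genes Tgfbr1 and Tgfbr2 stood at 96.9 ± 8.38 and 57.3 ± 4.08 TPM, Smad4, the common SMAD, at 66.0 ± 7.69 TPM and Smad2 at 44.8 ± 5.10 TPM (SD, n = 4). In replicates 1 to 4 Smad4 stood at 64.7, 77.2, 60.1 and 62.1 TPM, highest in the library in which Cbfb, Runx1 and Runx2 were also highest. This was not particular to Smad4: Tgfbr1, Tgfbr2, Smad2, Smad3, Smad5 and Smad7 were highest there too, and Smad1 in replicate 1. In other lists Ets1 and Ncor1 were also highest in replicate 2, while Foxp3 was highest in replicate 3. The share of all genes that were highest in replicate 2 was not computed. None of the 8 was called or had an unadjusted p under 0.05 (edgeR).

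**Figure D5:**
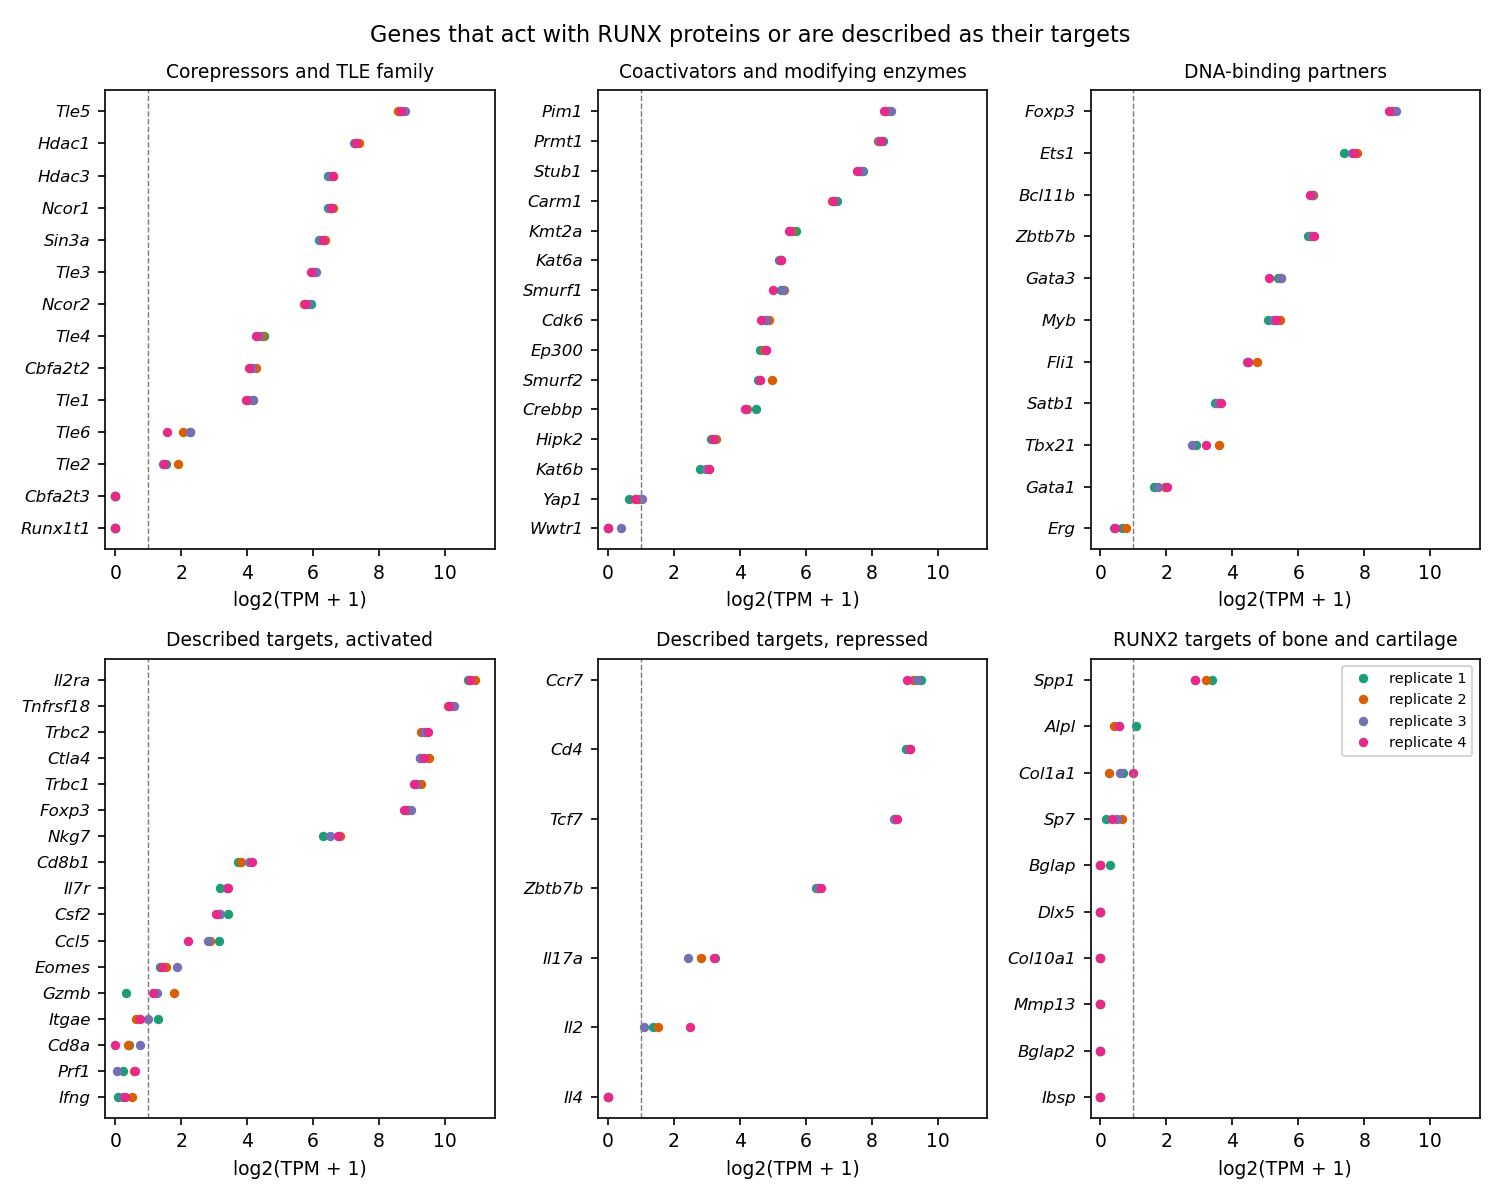
Level as log2(TPM + 1) of fixed genes that act with RUNX proteins or are described as their targets; each point is a library and the dashed line marks 1 TPM. Most corepressors, coactivators and partners lie right of the line in all 4 libraries, whereas Runx1t1, Cbfa2t3, Il4 and 5 of the 10 bone and cartilage genes lie at 0.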

How the data were processed

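The authors deposited raw counts of read pairs per gene without normalization. Per the file headers, featureCounts 1.4.6-p4 counted STAR alignments over GENCODE M13 exons with strand setting 2; the build is mm10 per the labels. The other deposited column used, exon length per gene, came from the authors' featureCounts run. How reads were trimmed and aligned is not given in the sources used. Symbols came from GENCODE M21, which matched 50376 of 50600 identifiers, and promoter windows from RefSeq (GRCm38.p6). TPM and CPM were computed from the deposited counts; levels are mean ± SD over 4 libraries. Variation was tested with edgeR 4.0.16 (R 4.3.3): TMM, filterByExpr with a minimum count of 10, estimateDisp with an intercept-only design, trended dispersion, one-sided deviance test, Benjamini-Hochberg over 13494 genes; the code was tested on simulated data. With 1 group there is no contrast between groups. Contrasts between members used an exact sign-flip permutation test, adjusted over 7.

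Members and the 16 gene lists (127 distinct genes besides the members) were chosen with earlier results of these data known. From each list the 4 highest genes by mean, those with no count and any called gene were to be named, with the 3 nearest genes per member; other names were added with their values known. A few genes counted in the lists are not reported here by name or in the plots.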

Additional observations from a re-analysis of the deposited data

Results flagged for a closer look

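Of 77 values examined, 4 had a single library whose gap to the rest exceeded Dixon's limit, which chance alone gives in about 1 in 20. No level, contrast or share of the 4 members was among them. All 4 are low markers of other cell types: Cd79a was highest in replicate 2 at 1.04 TPM, Gp9 in replicate 2 at 0.104 TPM, Hba-a1 in replicate 4 at 0.245 TPM and Kdr in replicate 1 at 0.0689 TPM. Gp9 and Kdr had counts in that library alone, which passes the limit by construction, so the stated chance does not hold for them. The 77 values did not cover every gene named above. Among those left out was Crebbp, at 21.6 TPM in replicate 1 against 17.6, 17.2 and 17.0 TPM in replicates 2 to 4. The limit was not applied to Crebbp, so its absence here says nothing about its gap.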

How the results depend on the processing

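In CPM without length, Cbfb minus Runx3 turned to -0.10 and summed RUNX minus Cbfb to 0.75 (log2); with transcript lengths the latter was 0.14. The other contrasts kept their sign under a pseudocount of 0.1, CPM, transcript lengths and without each library. Shares of the RUNX pool moved to 34.9% for Runx1, 1.45% for Runx2 and 63.6% for Runx3 in counts, and to 26.4% for Runx1 and 72.6% for Runx3 with transcript lengths. With those lengths, chosen after seeing the data and put in for the 4 members only, the levels were 40.2 TPM for Runx1, 1.52 TPM for Runx2, 110.5 TPM for Runx3 and 138.6 TPM for Cbfb. These rose by construction, because the scaling total was kept. Without genes shorter than 200 bases the level of each member moved by less than its SD. The number of genes varying beyond the trend was 937 with a common dispersion, ran from 17 (without replicate 1) to 56 (without replicate 2) when a library was left out, and was 23 without replicate 3; edgeR called no member under any alternative. With 4 libraries or fewer the exact permutation test cannot pass 0.05 under any setting. No paired analysis was possible because there is 1 group and no other to pair it with; contrasts between members were taken within each library. Depth limits Runx2, with 72 counts in the shallowest library.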
